A study of Mus musculus with 28 samples.

Results

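The 9 genes Mbp, Mog, Mag, Mobp, Cnp, Cldn11, Opalin, Ermn and Myrf mark myelin and the mature oligodendrocyte, the cell that makes it. They were chosen by symbol, and all 9 were among the 15097 genes listed for the social stress cohort and the 15054 listed for the diabetes cohort, which together hold 15263 genes. Each of 28 libraries came from 1 male C57Bl/6 mouse, from frontal cortex RNA depleted of ribosomal RNA. CSS mice (chronic social stress, n = 8, 21 weeks old) were isolated for 7 weeks and had 2 social confrontations a day over the last 20 days, and CSS_control mice (n = 8) were of the same age. T2D mice (a model of type 2 diabetes, n = 6, 30 or 31 weeks old) received 75 mg/kg streptozotocin, a toxin of insulin-producing cells, and a diet with 43.2% of its energy from fat for 21 weeks. T2D_control mice (n = 6) were 30 or 31 weeks old. What the control mice were given in place of these treatments is not given in the labels, and age differs between the cohorts together with the treatment.

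Oligodendrocytes wrap axons in myelin, a stack of membrane that insulates them and speeds conduction. The cells arise from precursors that divide, pass through a short stage of newly formed oligodendrocytes, and then make large amounts of a few myelin proteins and lipids. Mbp and Mobp encode basic proteins of compact myelin, and Mbp holds the cytoplasmic faces of the membrane together. Mog lies on the outermost surface of the sheath, and Mag is an adhesion protein of the innermost membrane, next to the axon. Cnp encodes a cyclic nucleotide phosphodiesterase of the non-compact channels of the sheath, and Cldn11 forms the tight junctions between its layers. Opalin is a transmembrane glycoprotein of oligodendrocytes, Ermn encodes ermin, which binds actin late in myelination, and Myrf is the membrane-bound transcription factor that switches on the myelin genes. Frontal cortex is mainly grey matter, in which myelin is sparser than in the white matter below it.

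No promoter window of Mbp or Myrf was searched, which does not show that the source lacks one. Promoter windows of 300 bases (most of each before a start site, RefSeq, GRCm38.p6) were used for 7 of the genes, with 3 windows for Mag. Each was searched on both strands for ACAAAG, a core of the sites bound by SOX proteins such as SOX10, and for CTGGCAC, a form of the motif of MYRF. The windows below are shown because they hold such matches. These are printed in capitals within the lower-case sequence, 5′ to 3′ on the strand of the gene. Mobp (chr9:120149492-120149791, plus strand) holds 6 matches to the SOX-type motif, all written as its reverse complement CTTTGT.
Mobp: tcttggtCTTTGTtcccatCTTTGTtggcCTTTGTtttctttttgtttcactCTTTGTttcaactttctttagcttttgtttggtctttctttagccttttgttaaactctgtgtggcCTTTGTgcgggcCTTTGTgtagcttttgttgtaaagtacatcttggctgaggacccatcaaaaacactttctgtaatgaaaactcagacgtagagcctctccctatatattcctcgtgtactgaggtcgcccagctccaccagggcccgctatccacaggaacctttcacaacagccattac
Cnp (chr11:100574689-100574988, plus strand) holds 1 match to each motif.
Cnp: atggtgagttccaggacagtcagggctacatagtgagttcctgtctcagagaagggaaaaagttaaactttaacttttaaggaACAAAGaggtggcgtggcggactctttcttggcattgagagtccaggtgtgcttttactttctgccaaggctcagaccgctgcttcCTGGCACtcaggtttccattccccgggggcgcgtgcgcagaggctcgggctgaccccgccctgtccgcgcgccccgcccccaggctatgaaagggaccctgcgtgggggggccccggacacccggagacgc
Mag (chr7:30914814-30915113, minus strand) also holds 1 match to each.
Mag: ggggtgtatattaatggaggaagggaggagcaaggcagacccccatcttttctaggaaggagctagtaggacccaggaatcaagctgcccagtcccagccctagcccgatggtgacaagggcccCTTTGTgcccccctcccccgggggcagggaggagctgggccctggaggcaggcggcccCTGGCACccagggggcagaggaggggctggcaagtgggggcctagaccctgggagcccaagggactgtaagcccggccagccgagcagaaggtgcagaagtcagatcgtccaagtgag
Opalin (chr19:41077064-41077363, minus strand) holds 2 SOX-type matches and 1 MYRF-type match, which is written as its reverse complement GTGCCAG.
Opalin: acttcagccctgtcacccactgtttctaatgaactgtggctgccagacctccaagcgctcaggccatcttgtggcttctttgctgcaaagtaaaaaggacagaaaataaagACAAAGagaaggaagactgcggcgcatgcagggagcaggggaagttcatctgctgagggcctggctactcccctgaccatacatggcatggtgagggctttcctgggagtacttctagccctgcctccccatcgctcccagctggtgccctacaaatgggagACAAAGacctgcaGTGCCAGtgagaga
Of 32851 windows in the table, 18.7% held the SOX-type motif, 5.01% the MYRF-type motif and 0.977% both. Only 3 windows (0.00913%) held 5 or more SOX-type matches, among them that of Mobp. This cutoff was applied to the SOX-type motif alone, and the matches of Mobp all lie in the T-rich first part of its window, so the share is a description. The windows of Ermn, Cldn11 and Mog held neither motif. Of the other windows of Mag, 1 overlaps that shown and holds the same matches, and 1 (chr7:30914272-30914571, minus strand) holds neither. A match is a run of letters and not a measured binding site.

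The genes lie on 8 chromosomes of the mouse genome (GRCm38, the assembly that mm10 names). They are Ermn (chr2:58045113-58052864, minus strand), Cldn11 (chr3:31149920-31164324, plus strand), Mag (chr7:30899176-30914873, minus strand), Mobp (chr9:120149707-120181484, plus strand), Cnp (chr11:100574904-100591729, plus strand), Mog (chr17:37010743-37023398, minus strand), Mbp (chr18:82475146-82585637, plus strand), Myrf (chr19:10208272-10240748, minus strand) and Opalin (chr19:41061710-41077113, minus strand). All are protein coding. Cnp shares 4.23% of its exon bases with Dnajc7 and Ermn 6.52% with Galnt5, each on the opposite strand, and Mobp shares 1.15% with the non-coding Gm38642 on the same strand. Whether strand was used in the counting is not given in the sources used here.

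Library totals (in M of estimated counts) spanned 15.2 to 21.9 in CSS, 14.3 to 37.5 in CSS_control, 14.3 to 22.7 in T2D and 12.1 to 21.6 in T2D_control. RNA integrity (RIN) averaged 9.63 ± 0.341 in CSS, 9.53 ± 0.225 in CSS_control, 9.05 ± 0.235 in T2D and 9.37 ± 0.509 in T2D_control (SD). Levels are counts per M counts (CPM) after scaling within each cohort, and changes are log2 fold changes from edgeR's quasi-likelihood test, called at a Benjamini-Hochberg adjusted p under 0.05 over all genes. The numbers of genes called were 683 in CSS (318 higher, 365 lower), 0 in T2D (879 at an unadjusted p under 0.05, and 4 by DESeq2) and 12 for the CSS change minus the T2D change.

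The 9 genes together took 0.217 ± 0.0223% of the counts in CSS against 0.239 ± 0.0204% in CSS_control (SD, n = 8 each). They took 0.202 ± 0.0327% in T2D against 0.215 ± 0.0361% in T2D_control (SD, n = 6 each). All 9 were present in every library, down to 8.91 CPM for Opalin in T2D_control replicate 4. The cohorts were scaled separately, so levels set across them are descriptive. Divided by the median length of each gene's coding transcripts, Mobp was the highest of the 9 in all 4 groups, followed by Mbp, Cnp, Mag, Cldn11, Mog, Ermn, Opalin and Myrf. In CSS_control this ran from 1333 ± 130.8 CPM per kb for Mobp and 634 ± 65.6 for Mbp to 10.5 ± 1.66 for Opalin and 6.28 ± 0.938 for Myrf (SD, n = 8). With the longest transcript in place of the median, Mbp came before Mobp in all 4 groups, at 256 and 202 CPM per kb in CSS_control. Ermn and Mog also changed places in CSS, CSS_control and T2D_control.

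**Figure D1:**
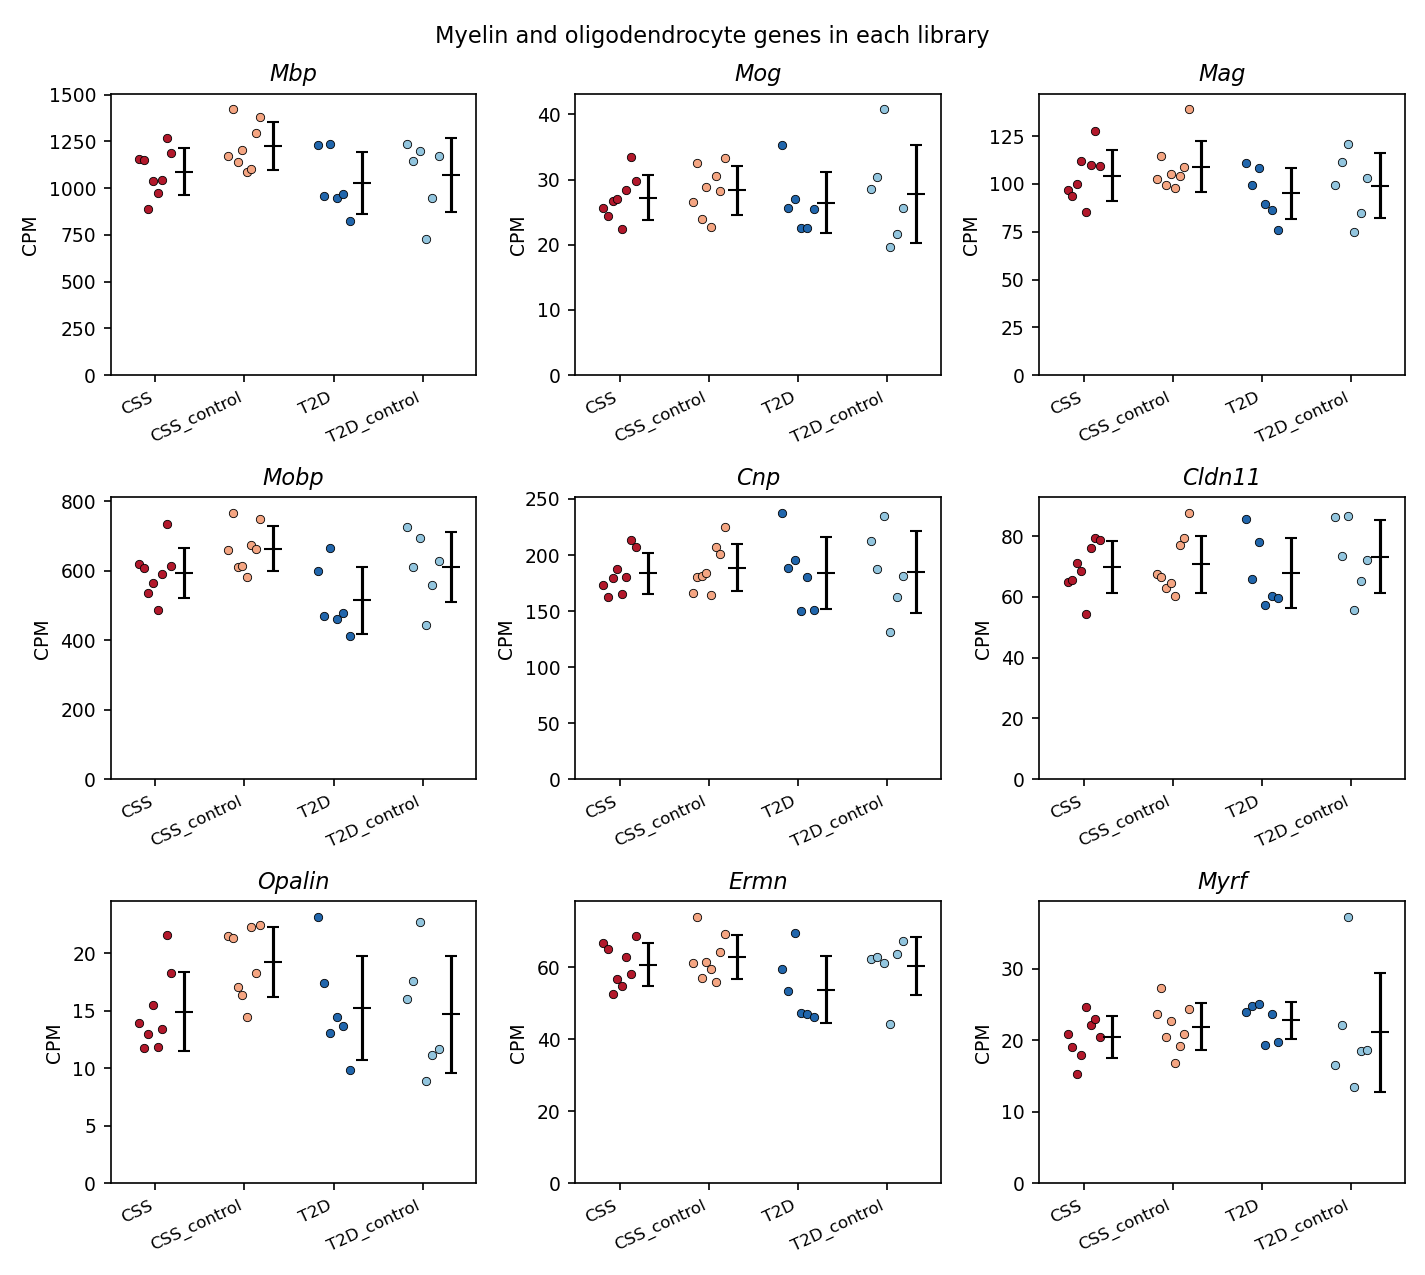
Level of each of the 9 genes in CPM, in each library of CSS, CSS_control, T2D and T2D_control, with the mean and SD of each group in black. The groups overlap for every gene, and the widest gap between a treated group and its controls, relative to their means, is that of Opalin in CSS, 14.9 against 19.2 in CSS_control.

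None of the 9 genes passed the test in CSS against CSS_control, where 4.52% of all genes did. All 9 had a negative log2 fold change, as had 48.7% of all genes, with a median of −0.06 over the 9 and 0.005 over all genes. Since the 9 genes move together across libraries, their signs are not independent of each other. At an unadjusted p under 0.05, 3 of the 9 were lower (Opalin, Mbp and Mobp), against 10.5% of all genes. The values of CSS and CSS_control overlapped for each of the 9, and 0.609% of all genes had values that did not overlap. In bulk tissue, fewer oligodendrocytes and less of these RNAs in each cannot be told apart.

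Levels are given from here on as the lowest, the median and the highest library of a group. Of the basic proteins of compact myelin, Mbp had 890, 1096 and 1268 CPM in CSS, against 1084, 1188 and 1421 CPM in CSS_control. In 7 of the 8 CSS libraries it lay below the control mean, and only CSS replicate 7 lay above it. Its log2 fold change was −0.17 (SE 0.07, 95% interval −0.32 to −0.02, edgeR adjusted p = 0.179), or 0.888-fold. Mobp had 486, 600.3 and 733 CPM in CSS, against 581, 661 and 765 CPM in CSS_control. CSS replicate 7 was again the only CSS library above the control mean, and the log2 fold change was −0.16 (SE 0.07, 95% interval −0.31 to −0.01, edgeR adjusted p = 0.212). Neither gene passed the threshold.

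Opalin, the transmembrane glycoprotein, had 11.8, 13.7 and 21.6 CPM in CSS, against 14.5, 19.8 and 22.5 CPM in CSS_control. Of the CSS libraries, 7 lay below the control mean, replicate 7 lay above it, and the means were 14.9 ± 3.43 and 19.2 ± 3.06 CPM (SD, n = 8 each). The log2 fold change was −0.37 (SE 0.13, 95% interval −0.63 to −0.10), or 0.775-fold, with an edgeR adjusted p of 0.0960. Without CSS replicate 7 it was −0.46 and passed, with an edgeR adjusted p of 0.0303, in a range of 0.0303 to 0.170 over 16 fits that each left out 1 library. DESeq2 also called it, at an adjusted p of 0.0493, in a range of 0.0493 to 0.343 over 13 other settings. Sample titles of both CSS and CSS_control carry code numbers, and what the codes stand for is not given. In CSS_control the number differs between replicates 1 to 4 and 5 to 8, and replicate 8 has a number that no other control has. Against replicates 1 to 4 alone the log2 fold change of Opalin was −0.36, and against replicates 5 to 8 alone it was −0.38. In these fits that of Mbp was −0.18 and −0.16, and that of Mobp −0.15 and −0.17, and none of the 3 genes passed.

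The surface, adhesion and non-compact myelin genes had changes near 0 in CSS. Mog had 22.4, 26.9 and 33.5 CPM in CSS, against 22.7, 28.5 and 33.3 CPM in CSS_control (log2 fold change −0.06, SE 0.09, edgeR adjusted p = 0.749). Mag had 85.3, 104.7 and 128 CPM in CSS, against 98.0, 104.8 and 139 CPM in CSS_control (−0.06, SE 0.08, edgeR adjusted p = 0.685). The medians of the groups were thus nearly equal for Mag, and the ranges of both genes lay over each other. Cnp had 162, 179.6 and 213 CPM in CSS, against 164, 183 and 225 CPM in CSS_control (−0.04, SE 0.07, edgeR adjusted p = 0.793). Cldn11 had 54.3, 69.7 and 79.5 CPM in CSS, against 60.2, 67.1 and 87.4 CPM in CSS_control (−0.02, SE 0.08, edgeR adjusted p = 0.925). Without CSS_control replicate 8, the library with the highest level of both, the change was 0.001 for Cnp and 0.03 for Cldn11.

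Ermn, the actin-binding gene, had 52.6, 60.5 and 68.8 CPM in CSS, against 56.0, 61.4 and 73.9 CPM in CSS_control (log2 fold change −0.05, SE 0.07, edgeR adjusted p = 0.706). The transcription factor gene Myrf had 15.3, 20.6 and 24.7 CPM in CSS, against 16.8, 21.7 and 27.3 CPM in CSS_control (−0.10, SE 0.10, edgeR adjusted p = 0.590). Both genes had libraries of CSS on either side of the control mean, 4 of 8 below it for Ermn and 5 of 8 for Myrf. Their 95% intervals were −0.19 to 0.09 and −0.32 to 0.11.

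Markers of neighbouring tissue and other cells were measured beside these changes. All 8 markers of striatal neurons had negative log2 fold changes in CSS (median −0.25, range −0.42 to −0.009), and none passed. The value nearest 0 was that of Drd1, −0.009 (SE 0.11). Their summed level was 659.6 to 1071 CPM in CSS and 729.8 to 1447 CPM in CSS_control. Of 6 microglial markers, 2 were lower (C1qa and Csf1r), with sums of 138 to 267 CPM in CSS and 252 to 291 CPM in CSS_control. Of the 6, 5 had negative log2 fold changes, and Tmem119 had 0.13. The call of C1qa ended without CSS replicate 6 and without CSS_control replicate 2, and that of Csf1r ended in 12 of 16 fits that left out 1 library, all but those without CSS replicates 1, 2 and 7 and CSS_control replicate 3. None of 6 neuronal, 6 astrocyte, 4 endothelial and 4 thalamic markers passed. Log2 fold changes were positive for 5 of the 6 astrocyte markers (median 0.14) and negative for 4 of the 6 neuronal markers (median −0.04). All 4 endothelial markers had positive log2 fold changes (median 0.09), with sums of 76.2 to 121 CPM in CSS and 84.4 to 103 CPM in CSS_control. So had all 4 thalamic markers (median 0.36), with sums of 119 to 147 CPM in CSS and 117 to 159 CPM in CSS_control. The part of these markers in the values of the myelin genes was not tested.

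**Figure D2:**
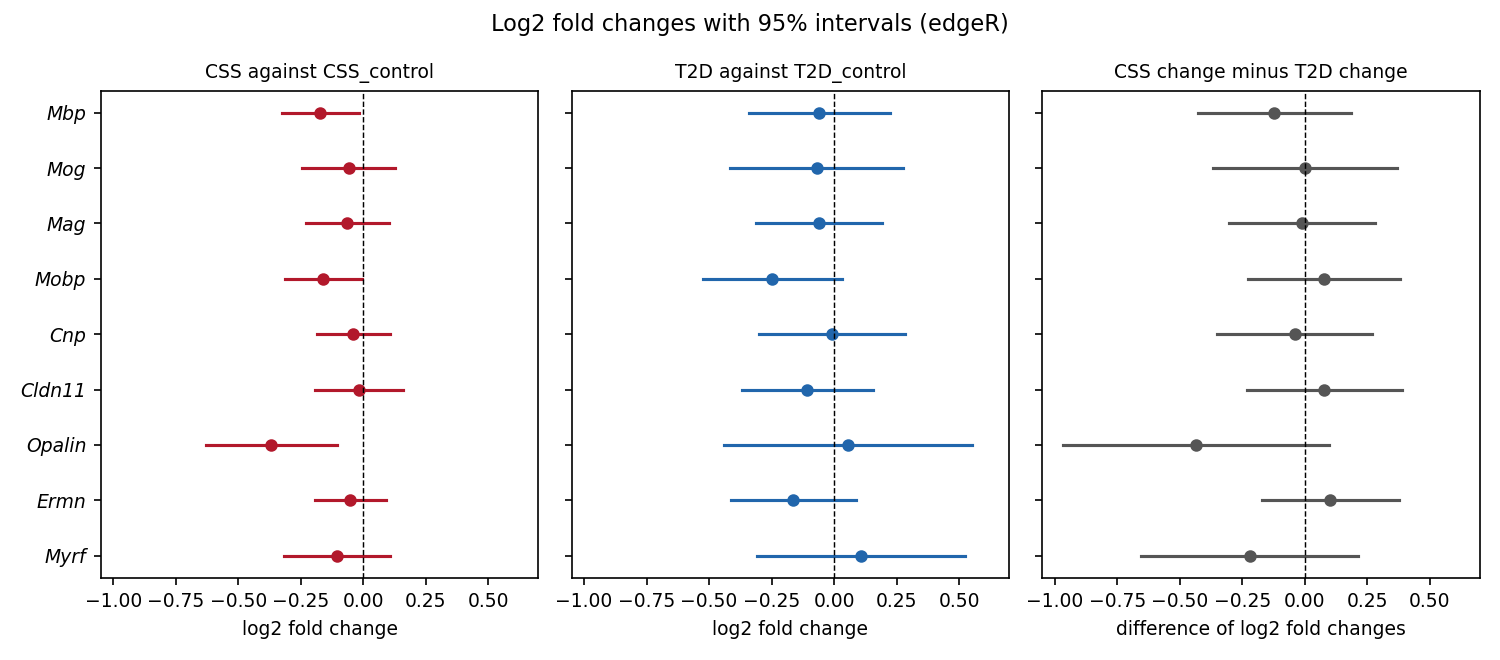
Log2 fold change of each of the 9 genes with its 95% interval from edgeR, for CSS against CSS_control, T2D against T2D_control, and the difference of these changes (CSS minus T2D). In CSS all 9 points lie below 0, with intervals that leave out 0 for Mbp, Mobp and Opalin, and every interval of the other panels includes 0.

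None of the 9 genes passed in T2D against T2D_control, nor did any of all genes (0%). The log2 fold change was negative for 7 of the 9, as it was for 49.2% of all genes, with a median of −0.06 over the 9 and 0.002 over all genes. None reached an unadjusted p under 0.05, which 5.84% of all genes did (2.87% with a negative change). In simulated data the test recovered 59% of genes changed by 0.5 and 97% of those changed by 1 on the log2 scale in T2D. In CSS it recovered 81% and 98%. The simulated spread was estimated over all libraries of a comparison without regard to group, so it also holds differences between groups. The changed genes were drawn from all genes over 5 CPM, and changes smaller than 0.5 were not simulated. Since the 9 genes varied more between mice than the median of genes of such level (below), recovery for them may be lower.

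Mobp had 413, 474.5 and 666 CPM in T2D, against 443, 619.5 and 727 CPM in T2D_control. Of the T2D libraries, 5 of 6 lay below the control mean, and replicate 3 lay above it. The log2 fold change was −0.25 (SE 0.13, 95% interval −0.52 to 0.03, edgeR adjusted p = 0.825). Mbp had 826, 964 and 1236 CPM in T2D, against 727, 1159 and 1237 CPM in T2D_control (−0.06, SE 0.13, edgeR adjusted p = 0.954). T2D replicates 1 and 3 were close to the highest control, and T2D_control replicate 4 was lower than every T2D library.

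The counts of Mobp and Mbp within a library can be set against each other without any scaling. The ratio of Mobp to Mbp was 0.499 ± 0.0201 in T2D (0.486 to 0.539) against 0.572 ± 0.0312 in T2D_control (0.534 to 0.610; SD, n = 6 each). T2D replicate 3, at 0.539, lay above T2D_control replicate 2 at 0.534 and replicate 6 at 0.535, and the other 5 T2D libraries lay below all controls. In CSS the ratio was 0.547 ± 0.0345 against 0.543 ± 0.0316 in CSS_control (SD, n = 8 each). These ratios were chosen after the values were seen and are given with no test.

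Opalin varied most of the 9 genes in T2D, with 9.86, 14.1 and 23.1 CPM, against 8.91, 13.8 and 22.7 CPM in T2D_control. Its log2 fold change was 0.06 (SE 0.23, 95% interval −0.44 to 0.55, edgeR adjusted p = 0.978), and both groups covered the same span. Myrf had 19.3, 23.8 and 25.03 CPM in T2D, against 13.5, 18.5 and 37.2 CPM in T2D_control (0.11, SE 0.19, edgeR adjusted p = 0.946). The mean of T2D_control rested on replicate 3, which had 37.2 CPM where the next library had 22.2, and without it the change was 0.35 (edgeR adjusted p = 0.446). That library also had the lowest RIN of the study, 8.5, and the part of this in its levels was not tested.

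Among the remaining genes, Ermn had 46.1, 50.3 and 69.5 CPM in T2D, against 44.3, 62.6 and 67.2 CPM in T2D_control (−0.16, SE 0.12, edgeR adjusted p = 0.850). Of the 6 controls, 5 had between 61.4 and 67.2 CPM, and T2D_control replicate 4 stood apart at 44.3. Cldn11 had 57.5, 63.2 and 85.8 CPM in T2D, against 55.8, 72.7 and 86.7 CPM in T2D_control (−0.11, SE 0.12, edgeR adjusted p = 0.903). Mag had 76.0, 94.3 and 111 CPM in T2D, against 75.1, 101.2 and 121 CPM in T2D_control (−0.06, SE 0.12, edgeR adjusted p = 0.948). The ranges of both genes were nearly the same in the groups. Mog had 22.6, 25.6 and 35.3 CPM in T2D, against 19.7, 27.1 and 40.8 CPM in T2D_control (−0.07, SE 0.16, edgeR adjusted p = 0.955). Cnp had 150.2, 184.4 and 237 CPM in T2D, against 131.1, 184.2 and 235 CPM in T2D_control (−0.01, SE 0.14, edgeR adjusted p = 0.995). Its medians differed by less than 1 CPM.

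All 8 striatal markers had positive log2 fold changes in T2D (median 0.56, range 0.46 to 0.65), and none passed. Their sum ranged from 183.9 to 1431 CPM in T2D and from 228 to 1319 CPM in T2D_control. All 6 microglial markers had negative fold changes in T2D (median −0.31), with sums of 130 to 244 CPM in T2D and 158 to 256 CPM in T2D_control, and none passed. All 4 thalamic markers had positive fold changes (median 0.46), and none passed. Their sum was 113 to 233 CPM in T2D and 105 to 144 CPM in T2D_control, and T2D replicate 4 was the highest of its group for each of the 4, with Prkcd at 56.5 CPM where the group median was 14.9. That library was the lowest of the T2D group for 4 of the 9 myelin genes. Without it none of the 9 passed, but nor did any gene of the whole table, so this fit cannot show its part in their values. Of the 4 endothelial markers, 3 had positive fold changes in T2D (median 0.17) and none passed, with sums of 60.3 to 95.8 CPM in T2D and 58.5 to 86.04 CPM in T2D_control. How far these move with the myelin genes is given with the values across libraries below.

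When the T2D change was taken from the CSS change, none of the 9 genes passed, against 0.0806% of all genes (0.047% higher, 0.0336% lower). None reached an unadjusted p under 0.05, which 12.4% of all genes did (6.36% with a negative difference). The difference was negative for 5 of the 9 and for 51.1% of all genes. Opalin had the largest difference in size, −0.44 (SE 0.26, 95% interval −0.97 to 0.10, edgeR adjusted p = 0.507), from −0.37 in CSS and 0.06 in T2D. Myrf had −0.22 (SE 0.21, edgeR adjusted p = 0.712) and Mbp −0.12 (SE 0.15, edgeR adjusted p = 0.781). The other 6 genes had differences between −0.04 and 0.10. The response to social stress was thus not shown to differ from that to diabetes for any of the 9. In simulated data the test of this difference recovered 37% of genes changed by 0.5 and 90% of those changed by 1 on the log2 scale. The spread simulated there took the libraries of both cohorts together, so it also holds differences between cohorts and groups. Recovery with the spread within groups, which the test itself uses, was not simulated.

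**Figure D3:**
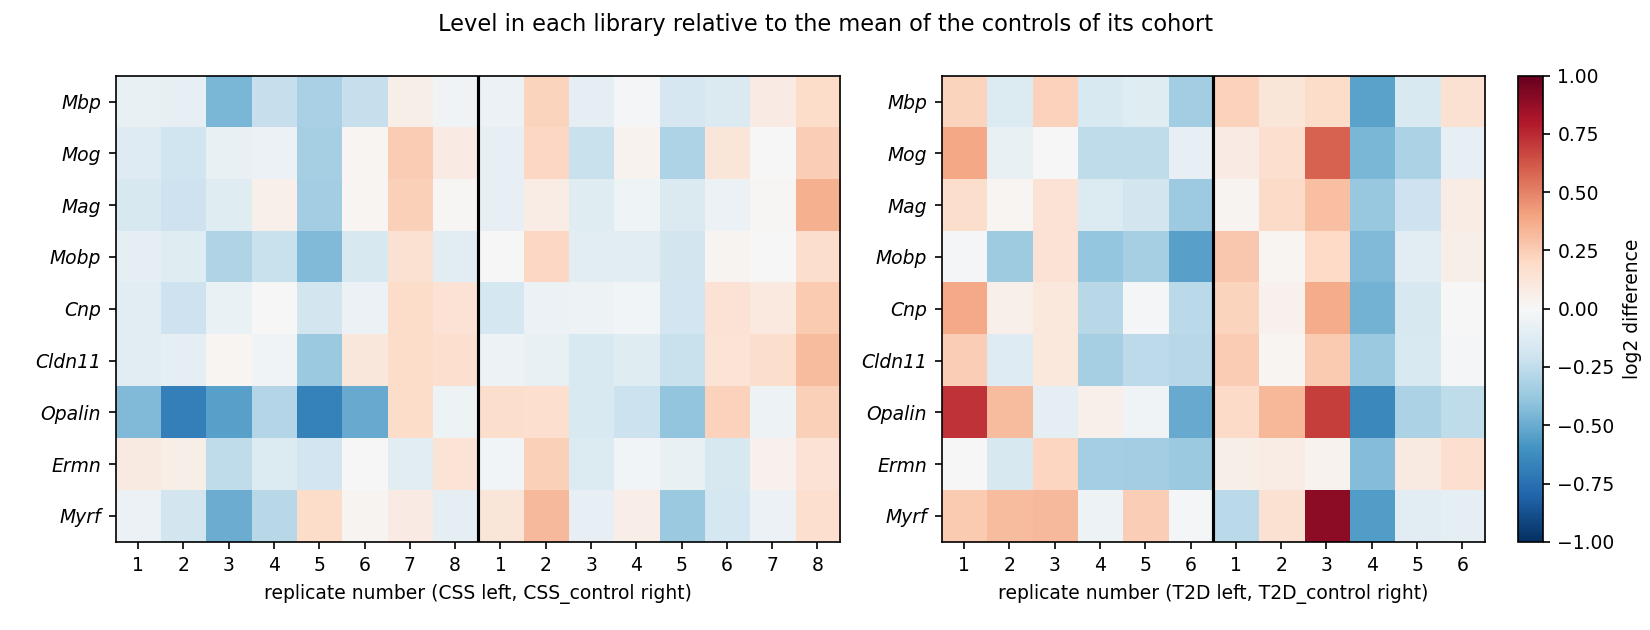
Level of each gene in each library as a log2 difference from the mean of the controls of its cohort, with CSS left of CSS_control and T2D left of T2D_control. Whole columns share a colour, as in T2D_control replicate 4, the lowest library of its group for all 9 genes, and replicate 3, the highest for 6.

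The levels of the 9 genes varied together from library to library. In CSS_control, replicate 5 had the lowest level for 8 of the 9 genes, and replicate 8 the highest for 5. In CSS, replicate 7 had the highest level for 7 of the 9, and replicate 5 the lowest for 4. In T2D, replicate 1 had the highest level for 5 and replicate 6 the lowest for 5. In T2D_control, replicate 4 had the lowest level for all 9, with a mean log2 difference from its group of −0.48 over the genes. In replicate 3 this difference was 0.39.

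Pairs of the genes were correlated over libraries after each group's mean was taken out, which is a description of libraries that share scaling and depth. The median Pearson r over the 36 pairs was 0.62 across the 16 libraries of the CSS cohort (range 0.04 to 0.87) and 0.81 across the 12 of the T2D cohort (range 0.44 to 0.97). Median Spearman rho was 0.60 and 0.75. Each pair was also correlated without the 2 libraries farthest from the median in its first-listed gene, so the libraries left out may differ between pairs. Median r was then 0.52 in the CSS cohort and 0.69 in the T2D cohort. Mog and Mag were the closest pair in the CSS cohort (r = 0.87), and Mbp and Mobp in the T2D cohort (r = 0.97). Cnp and Cldn11 had r = 0.86 in the CSS cohort and 0.95 in the T2D cohort.

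Over all libraries, Myrf and Ermn had the lowest correlations with the others. The correlation of Myrf with the mean of the other 8 genes was 0.40 in the CSS cohort and 0.72 in the T2D cohort, and that of Ermn was 0.50 and 0.70. For the other 7 genes it was 0.73 to 0.90 in the CSS cohort and 0.83 to 0.96 in the T2D cohort. This order rested in part on single libraries. Without the 2 libraries farthest from the median in the mean of the other 8 genes, Ermn had 0.64 in the CSS cohort, above Cldn11 (0.58) and Cnp (0.53). In the T2D cohort Opalin (0.68) then came close to Myrf (0.67) and Ermn (0.66). Myrf kept the lowest value in the CSS cohort, 0.26. Within the CSS cohort Ermn kept to Mbp (r = 0.81) more than to Cnp (r = 0.15), while Myrf had r = 0.04 with Cldn11 and 0.62 with Mbp. In the T2D cohort r was 0.86 for Ermn with Mbp, 0.69 for Ermn with Cnp, 0.59 for Myrf with Cldn11 and 0.56 for Myrf with Mbp.

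**Figure D4:**
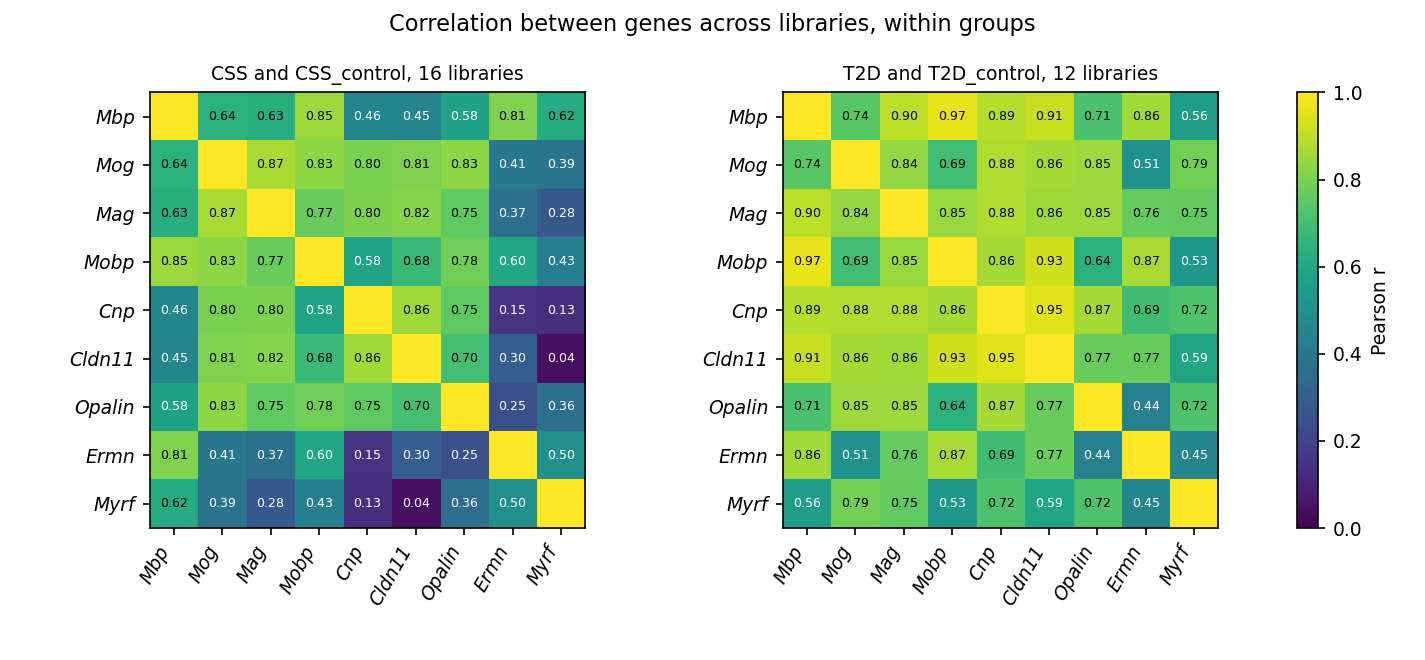
Pearson r between the 9 genes over the 16 libraries of the CSS cohort and the 12 of the T2D cohort, after the mean of each group was taken out. Values run from 0.04 to 0.87 in the CSS cohort and from 0.44 to 0.97 in the T2D cohort, with the low ones in the rows of Ermn and Myrf.

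The spread of the 9 genes between mice was set beside that of other genes, as a description. The median coefficient of variation over the 9 was 12.1% in CSS and 12.1% in CSS_control, and 17.2% in T2D and 18.4% in T2D_control. For all genes at or above the lowest of the 9 in level, the median was 9.32% in CSS and 9.07% in CSS_control, and 11.96% in T2D and 9.74% in T2D_control. Opalin had the largest value of the 9 in CSS (23.0%), CSS_control (15.9%) and T2D (29.9%), and Myrf in T2D_control (39.8%), which rested on replicate 3.

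Across libraries, the mean of the 9 genes was set beside values of the samples, again with the group means taken out. The 2 farthest libraries are here those farthest from the median in the sample value, so they may differ between values. With RIN its r was 0.47 in the CSS cohort (0.15 without the 2 farthest libraries) and −0.14 in the T2D cohort (0.50 without them), so the sign in the T2D cohort rested on those libraries. With the log2 library total it was 0.14 in the CSS cohort (−0.31 without the 2 farthest) and 0.35 in the T2D cohort (0.45). In the CSS cohort r was 0.35 with the node and paranode genes, 0.33 with the striatal markers, 0.21 with the microglial, 0.03 with the neuronal, 0.01 with the thalamic, −0.09 with the astrocyte and −0.15 with the precursor markers. Without the 2 farthest libraries these were 0.18, 0.29, 0.03, 0.11, 0.04, −0.21 and −0.26. In the T2D cohort r was 0.57 with the node and paranode genes, 0.34 with the striatal markers, 0.20 with the microglial, 0.15 with the neuronal, −0.07 with the thalamic, 0.37 with the astrocyte and 0.45 with the precursor markers. Without the 2 farthest libraries these were 0.12, 0.41, 0.48, 0.14, −0.18, 0.45 and 0.18. Their part in the shared movement of the myelin genes was not tested.

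Of the genes outside the lists used here, the 10 whose levels were most like the mean of the 9 in both cohorts were Pllp, Csrp1, Gatm, Unc5b, Plekhh1, Nfe2l3, Ttyh2, Mcam, Galnt6 and S1pr5. Their r was 0.71 to 0.89 in the CSS cohort and 0.70 to 0.89 in the T2D cohort, and the median over all genes outside the lists was 0.01 in the CSS cohort and −0.02 in the T2D cohort. Pllp encodes plasmolipin, a proteolipid of myelin (r = 0.79 and 0.81), Gatm an enzyme of creatine synthesis (0.78 and 0.89), and S1pr5 a receptor for a sphingolipid that oligodendrocytes carry (0.89 and 0.70). The 5 that ran most against the mean were Ddx55, Top1mt, Bclaf3, Enox1 and H2-Aa, with r of −0.73 to −0.60 in the CSS cohort and −0.67 to −0.64 in the T2D cohort. Of all 15, Pllp alone was called in CSS, at 24.5 CPM against 31.4 CPM in CSS_control (log2 fold change −0.36, SE 0.10, edgeR adjusted p = 0.0499). That call ended in 12 of 16 fits that left out 1 library, all but those without CSS replicates 7 and 8 and CSS_control replicates 5 and 6, with adjusted p up to 0.0983. In T2D its log2 fold change was 0.11 (edgeR adjusted p = 0.915).

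Other genes of the lineage, in lists drawn up with earlier results of these data known, were counted beside 2.11% of all genes that were higher and 2.42% that were lower in CSS. Of 12 further myelin proteins, 1 was lower in CSS and none in T2D, with a median log2 fold change of −0.14 in CSS and 0.01 in T2D. The lower gene was Plekhb1, which encodes a pleckstrin homology domain protein, with 125, 136 and 148 CPM in CSS, against 140.1, 160.04 and 181 CPM in CSS_control (log2 fold change −0.23, SE 0.05, 8 of 8 below the control mean, edgeR adjusted p = 0.0249). The call ended without CSS replicate 6 and without CSS_control replicate 2, with adjusted p up to 0.0554. In T2D the smallest p of this list was that of Mal, a proteolipid of myelin (−0.27, SE 0.12, edgeR adjusted p = 0.825).

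Of 16 further markers of the mature oligodendrocyte, 1 was lower in CSS and none in T2D. It was Il33, a nuclear cytokine of mature oligodendrocytes, with 36.0, 43.4 and 46.9 CPM in CSS, against 40.8, 52.5 and 55.3 CPM in CSS_control (log2 fold change −0.25, SE 0.07, 8 of 8 below the control mean, edgeR adjusted p = 0.0395). This call ended in 9 of 16 fits, those without CSS replicates 2, 3, 5 or 6 or CSS_control replicates 1, 2, 3, 4 or 8, with adjusted p up to 0.0797. The median over the list was −0.04 in CSS and −0.002 in T2D. None of 12 genes of myelin lipid synthesis and none of 10 transcription factors of the lineage passed in either comparison. Ugt8a, which makes galactocerebroside, had 0.20 (SE 0.06, edgeR adjusted p = 0.0696) in CSS, and Nkx6-2 had −0.27 (SE 0.11, edgeR adjusted p = 0.162). In T2D the transcription factor gene Tcf7l2 had 0.77 (SE 0.29, edgeR adjusted p = 0.825), a gene that thalamic neurons also express.

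Of 8 genes of the newly formed oligodendrocyte, 2 were higher in CSS, 1 was lower and 5 did not pass, and none passed in T2D. Gpr17, a receptor of cells that are about to become oligodendrocytes, had 31.5, 37.7 and 43.3 CPM in CSS, against 24.8, 27.7 and 30.9 CPM in CSS_control. All CSS libraries lay above all controls, and the log2 fold change was 0.40 (SE 0.07, 95% interval 0.26 to 0.55, edgeR adjusted p = 0.00903). Bcas1, which marks oligodendrocytes as they begin to myelinate, had 80.4, 93.6 and 108 CPM in CSS, against 103, 113 and 143 CPM in CSS_control. It was lower in 8 of 8 libraries (−0.32, SE 0.07, edgeR adjusted p = 0.0203), and both calls held in all 16 fits that left out 1 library. Itpr2, a calcium release channel, had 27.5, 43.6 and 53.0 CPM in CSS, against 27.4, 31.5 and 35.5 CPM in CSS_control (0.39, SE 0.10, edgeR adjusted p = 0.0385). Its call ended in 12 of 16 fits, all but those without CSS replicates 1, 3 and 8 and CSS_control replicate 8, with adjusted p up to 0.0789.

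Genes of these stages were also set beside the mean of the 9, with no test between the lists. Bcas1 followed their mean across libraries (r = 0.79 in the CSS cohort and 0.93 in the T2D cohort), while Gpr17 did not follow it closely (r = −0.04 and 0.25), nor did Itpr2 (0.02 and 0.14). Enpp6, another gene of the newly formed list, had r of 0.61 and −0.07. The median r was 0.67 and 0.83 for the further myelin proteins, 0.63 and 0.78 for the mature markers, 0.11 and 0.20 for the newly formed cells and 0.02 and 0.47 for 8 precursor genes. Among lineage factors Sox10 followed the 9 most closely (r = 0.72 and 0.95). No precursor gene passed in CSS or T2D, and Cspg4, the NG2 proteoglycan, had 0.39 in CSS (SE 0.14, edgeR adjusted p = 0.116). In T2D the precursor gene of smallest p was Lhfpl3 (0.48, SE 0.22, edgeR adjusted p = 0.825). Of 11 genes of the node of Ranvier and the junctions beside it, none passed, and 10 had positive fold changes in CSS, with Nfasc at 0.22 (SE 0.07, edgeR adjusted p = 0.0601). Of 4 Schwann cell genes only Pmp22 was listed, at −0.25 in CSS (SE 0.08, edgeR adjusted p = 0.0876).

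The calls of Plekhb1, Il33, Bcas1, Gpr17, Itpr2 and Pllp, and of the microglial C1qa and Csf1r, all ended in 2 further fits, with the direction kept. Of 13 settings in all, the call was lost in 2 for Plekhb1, Bcas1 and Gpr17, 3 for Il33 and C1qa, 5 for Itpr2 and Csf1r, and 6 for Pllp. Against CSS_control replicates 5 to 8 alone, where no gene of the whole table was called by edgeR (1971 at an unadjusted p under 0.05), their adjusted p was 0.225 to 0.399. In 1 model of all 28 libraries it was 0.0572 to 0.289.

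**Figure D5:**
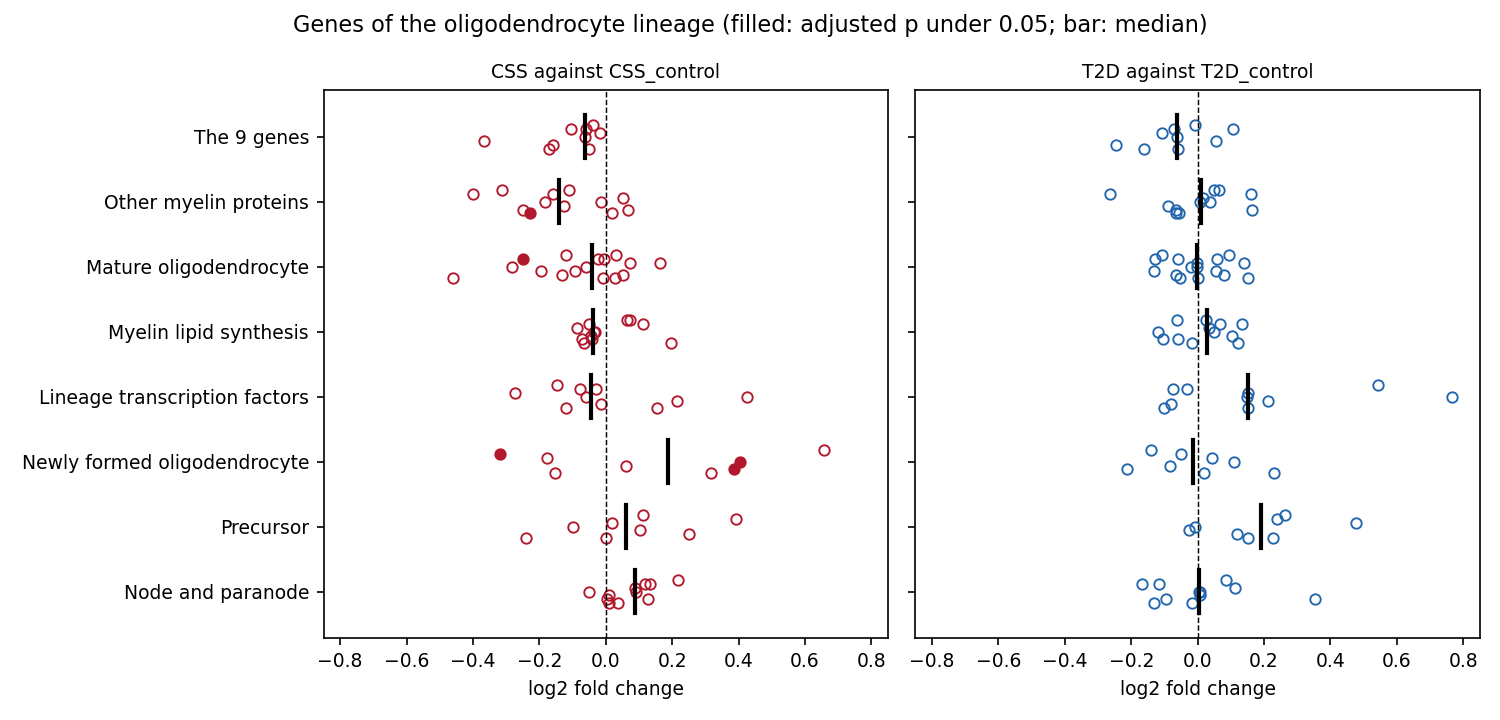
Log2 fold change of the 9 genes and of the genes of 7 other lists of the oligodendrocyte lineage, 1 point per gene, for CSS against CSS_control and T2D against T2D_control. Filled points passed the test and bars are medians: 5 points are filled in CSS, 3 of them among newly formed oligodendrocyte genes, and none in T2D.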

How the data were processed

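The gene values that the authors deposited, 1 table a cohort, are estimated counts, not whole numbers. Per the submitters' processing notes, reads were assigned with Salmon 1.1.0 and the build was mm10. How transcripts were summed and low genes removed is not given in the sources used here. Counts were rounded and tested with edgeR 4.0.16 (R 4.3.3; robust quasi-likelihood, TMM scaling, default low-count filter, which removed 0 genes), each cohort by itself and, for the difference of the changes, over 28 libraries and 14888 shared genes. Adjustment (Benjamini-Hochberg, 0.05) was over all genes of a comparison. Samples were grouped by treatment label and title. Correlations used log2 CPM with a prior count of 2. The step was tested on simulated data with 200 changed genes, with a spread estimated over all libraries of a comparison without regard to group. DESeq2 1.42.0 and limma 3.58.1 (voom) served as alternatives, and figures were drawn with matplotlib 3.10.9.

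Annotation came from GENCODE M21. The members and lists were chosen with earlier results of these data known. The genes named were the 9, the called genes of each other list or, where none was called, that of smallest p (values of some are left out), and those most and least like the mean of the 9. Sox10, Enpp6 and Prkcd fall outside this and were named after their values were seen. Same-numbered replicates of a treated group and its controls did not vary together (r −0.16 to 0.33 in the CSS cohort, −0.01 to 0.13 in the T2D cohort), so they were not paired. Per-library precision is limited by totals of 12.1 to 37.5 M counts and by the number of mice.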

Additional observations from a re-analysis of the deposited data

Results flagged for a closer look

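Of 36 sets of libraries (9 genes in 4 groups), 4 held a library that stood apart from the rest of its group by the gap to its nearest neighbour. For a single set of normally spread values, chance gives about 1 in 20. The 9 genes move together over the same libraries, so the 36 sets are not independent and the 4 cannot be set against that rate. Mog in T2D replicate 1 was at 35.3 CPM, and the next library of the group had 27.0. Mag in CSS_control replicate 8 was at 139 CPM, with the next at 114. Ermn in T2D_control replicate 4 was at 44.3 CPM, below the next at 61.4. Myrf in T2D_control replicate 3 was at 37.2 CPM, with the next at 22.2.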

How the results depend on the processing

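Of 306 fold changes of the 9 genes under settings other than the omission of 1 library, 295 kept their direction and side of the threshold, 10 changed sign and 1 (Opalin in CSS by DESeq2) passed. In CSS, Cnp was at 0.046 and Cldn11 at 0.094 against controls 1 to 4, and Myrf at 0.0055 against controls 5 to 8. In T2D, Cnp was at 0.0029 without scaling and 0.0012 with a minimum of 5 CPM, and with RIN as a covariate Opalin was at −0.045 and Myrf at −0.019. For the difference of the changes, Mog was at −0.034 by voom, −0.0051 with the minimum of 5 CPM and −0.013 with the replicate block. The cause was not tested.

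The number of genes called in CSS was 1313 by DESeq2 (1 of the 9), 1130 against controls 1 to 4 and 0 against controls 5 to 8. Both of the latter fits had the same number of controls, fewer than the full fit, and why their counts differ was not tested. For T2D it was 4 by DESeq2. For the difference it was 5 without scaling, 130 by DESeq2, 0 by voom, 23 with the minimum of 5 CPM, 0 without robust estimation, 32 with the replicate block and 0 with RIN. With the replicate block, CSS had 478 calls and T2D 0, none among the 9. The numbers did not pair the samples: 2 of 8 CSS libraries correlated best with their own number, and 0 of 6 in T2D.

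With 1 library left out, CSS had 222 to 794 genes called (under 455 without CSS replicates 5, 6 or 8 or CSS_control replicates 1, 2, 3, 4 or 5), 0 or 1 of them among the 9, and the difference had 0 to 32, with 25 of 28 fits moved by over 1.5 times. Changes of sign were within −0.073 to 0.00086 for Cnp and −0.050 to 0.031 for Cldn11 in CSS, −0.17 to 0.075 for Mog, −0.13 to 0.0042 for Mag, −0.096 to 0.072 for Cnp and −0.10 to 0.23 for Opalin in T2D, and −0.14 to 0.11 for Mog, −0.076 to 0.054 for Mag and −0.12 to 0.052 for Cnp in the difference. The median r over pairs was 0.57 to 0.68 in the CSS cohort and 0.73 to 0.85 in the T2D cohort. With the log2 library total as a covariate, chosen after seeing the data, none of the 9 passed.

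Limits are the number of mice and the spread between them. In simulated data, 59% of changes of 0.5 on the log2 scale were recovered for T2D and 37% for the difference of the changes. The simulated spread also held differences between groups and, for the difference, between cohorts, so these shares do not give recovery at the spread within groups.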
